A study of Mus musculus with 6 samples.

Results

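Of 12596 barcodes of kidney leukocytes that passed the filters, 6137 were macrophages, and 215 of these carried at least 2 RNA molecules of the chemokine genes Cxcl9 and Cxcl10. These positive macrophages were 83 cells of rhabdomyolysis libraries and 132 of control libraries. Live cells with CD45, the surface protein of all leukocytes, had been sorted from kidneys of 8 week old C57BL/6J mice and put through 3' droplet single-cell RNA sequencing. The 3 rhabdomyolysis libraries came from mice whose acute kidney injury followed rhabdomyolysis, in which the contents of broken-down skeletal muscle reach the kidney, and the 3 control libraries from control mice. The labels give neither the agent that caused the rhabdomyolysis, nor the time after it, nor the sex of the mice. Whether each library of a group is a different animal is not stated, so the p-values rest on a spread between libraries that may be only technical.

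A barcode passed with 500 or more unique molecular identifiers (UMIs, counted RNA molecules) of genes, 200 or more genes, mitochondrial UMIs of up to 15% and Malat1, a nuclear RNA, at 0.3% or more of its UMIs. It was taken as a macrophage when the complement genes C1qa, C1qb and C1qc made up 0.3% or more of its UMIs and no UMI of the T cell gene Cd3e or the B cell gene Cd79a was present. A positive macrophage also held 2 or more UMIs of Cxcl9 and Cxcl10 together. It was compared with the 5802 negative macrophages of the same libraries, which held none. The 120 macrophages with exactly 1 such UMI, 42 in rhabdomyolysis and 78 in control libraries, belong to neither class. Just inside the threshold, 11 positive macrophages of rhabdomyolysis and 27 of control libraries held exactly 2. Since Cxcl9 and Cxcl10 chose the cells, their levels are given as a description with no test.

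CXCL9 and CXCL10 are secreted chemokines that attract T cells and natural killer cells through the receptor CXCR3. Interferon gamma from those lymphocytes acts on macrophages through JAK kinases and STAT proteins, which bind gamma-activated sites. Type I interferons act through STAT proteins and IRF9 together, which bind interferon-stimulated response elements. Cxcl9 is known mainly as an interferon gamma target, while Cxcl10 is induced by both kinds of interferon and also by NF-kB, the transcription factor of toll-like receptor and TNF signalling. Macrophages answering interferon also make guanylate-binding proteins and immunity-related GTPases, which attack pathogen-containing vacuoles, and IFIT proteins, which bind viral RNA.

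The promoters of both chemokines are shown with those of Gbp2, a guanylate-binding protein gene that passed the test in both comparisons of positive with negative macrophages, and of Ifit3, a named marker of these cells. Each is the 250 bases before the gene's start in RefSeq, build GRCm38.p6, written along the gene's strand. Capitals mark every match, on either strand, to the core of the interferon-stimulated response element, taken as GAAA, any 2 bases and GAAA again, or to a kappa B site, taken as GGG, any 3 bases and TTCC. Matches to the gamma-activated site TTCNNNGAA were searched too, and these 4 windows held none. No pair of marked matches overlaps. The windows are Cxcl9 at chr5:92328080-92328329 (minus strand), Cxcl10 at chr5:92348890-92349139 (minus strand), Gbp2 at chr3:142620413-142620662 (plus strand) and Ifit3 at chr19:34583279-34583528 (plus strand).
Cxcl9: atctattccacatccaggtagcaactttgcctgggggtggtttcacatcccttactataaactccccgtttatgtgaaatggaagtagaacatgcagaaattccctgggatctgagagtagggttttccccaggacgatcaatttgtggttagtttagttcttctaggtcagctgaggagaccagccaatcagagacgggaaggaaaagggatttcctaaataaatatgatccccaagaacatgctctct
Cxcl10: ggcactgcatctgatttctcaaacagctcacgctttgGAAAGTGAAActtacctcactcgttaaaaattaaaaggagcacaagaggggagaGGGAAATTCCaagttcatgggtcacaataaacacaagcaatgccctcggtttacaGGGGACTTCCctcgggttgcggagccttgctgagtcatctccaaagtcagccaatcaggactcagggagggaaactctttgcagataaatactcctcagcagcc
Gbp2: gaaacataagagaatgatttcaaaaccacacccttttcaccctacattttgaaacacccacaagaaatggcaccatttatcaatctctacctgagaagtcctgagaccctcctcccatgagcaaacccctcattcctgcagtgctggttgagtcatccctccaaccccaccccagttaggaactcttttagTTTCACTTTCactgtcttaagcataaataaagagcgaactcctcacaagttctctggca
Ifit3: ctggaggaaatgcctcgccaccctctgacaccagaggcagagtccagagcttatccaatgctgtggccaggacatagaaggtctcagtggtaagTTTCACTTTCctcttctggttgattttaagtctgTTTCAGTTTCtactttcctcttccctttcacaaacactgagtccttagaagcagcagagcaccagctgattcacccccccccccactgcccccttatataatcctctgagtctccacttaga

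The Cxcl10 window held an interferon-stimulated response element core that begins 213 bases before the start and kappa B matches at 159 and 104 bases. Gbp2 held the element core at 59 bases, and Ifit3 held it at 156 and 122 bases. The Cxcl9 window held none of the 3 motifs, which says only that these letters are not in its 250 bases. Of 27025 genes with a window, 3.46% held the element core, 8.13% a gamma-activated site and 5.31% a kappa B match. Among interferon-inducible GTPases with a window, 10 of 11 held the element core and 6 held a gamma-activated site. Of 38 interferon-induced antiviral genes with a window, 20 held the element core, against 1 of 15 chemokine genes. A kappa B match stood in 4 of the 15 chemokine windows and in 1 of the 11 GTPase windows.

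Positive macrophages were a small minority in both conditions. Rhabdomyolysis libraries 1, 2 and 3 held 18, 30 and 35 of them among 504, 746 and 544 macrophages, and control libraries 1, 2 and 3 held 58, 28 and 46 among 1787, 1523 and 1033. Their share of macrophages was 3.57, 4.02 and 6.43% in rhabdomyolysis libraries, with exact 95% binomial intervals of 2.13 to 5.59%, 2.73 to 5.69% and 4.52 to 8.83%. It was 3.25, 1.84 and 4.45% in control libraries, with intervals of 2.47 to 4.18%, 1.23 to 2.65% and 3.28 to 5.9%. These intervals, like the other intervals and lower bounds here, cover counting error only. The groups overlap, with control 3 above rhabdomyolysis 1 and 2. The mean share was 4.68% ± 1.54 in rhabdomyolysis and 3.18% ± 1.31 in control libraries (SD, n = 3 each), and a two-sided exact permutation test gave p = 0.4, where 3 against 3 libraries cannot go below 0.1. Of all passing barcodes the share was 1.78, 1.96 and 2.32% in rhabdomyolysis and 1.67, 0.99 and 2.05% in control libraries (exact permutation p = 0.3). Macrophages of rhabdomyolysis libraries held more UMIs a cell than those of control libraries, while T cells of rhabdomyolysis libraries held fewer. Whether this reflects more RNA per macrophage or sequencing was not tested, and thinning removes either. When every macrophage was thinned to 1000 UMIs the mean share was lower in rhabdomyolysis, at a difference of -0.642 percentage points (exact permutation p = 0.3). Without the Malat1 filter the share was 0.858, 0.909 and 1.14% in rhabdomyolysis and 3.23, 2.37 and 4.04% in control libraries, with no overlap and control higher (exact permutation p = 0.1).

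Which chemokine the cells held differed between the conditions. In rhabdomyolysis libraries 17, 29 and 35 positive macrophages held Cxcl10 alone, 1, 1 and 0 held both chemokines and none held Cxcl9 alone. In control libraries 20, 7 and 17 held Cxcl10 alone, 16, 10 and 14 held both and 22, 11 and 15 held Cxcl9 alone. Cells with Cxcl9 thus made up 5.56, 3.33 and 0% of positive macrophages in rhabdomyolysis and 65.5, 75 and 63% in control libraries, and the groups do not overlap. As a share of macrophages, cells with Cxcl10 alone were 3.37, 3.89 and 6.43% in rhabdomyolysis and 1.12, 0.46 and 1.65% in control libraries. Positive macrophages with Cxcl9 were 0.198, 0.134 and 0% of macrophages in rhabdomyolysis, with the 0 of 544 cells in library 3 allowing up to 0.676% by the exact interval, and 2.13, 1.38 and 2.81% in control libraries.

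**Figure D1:**
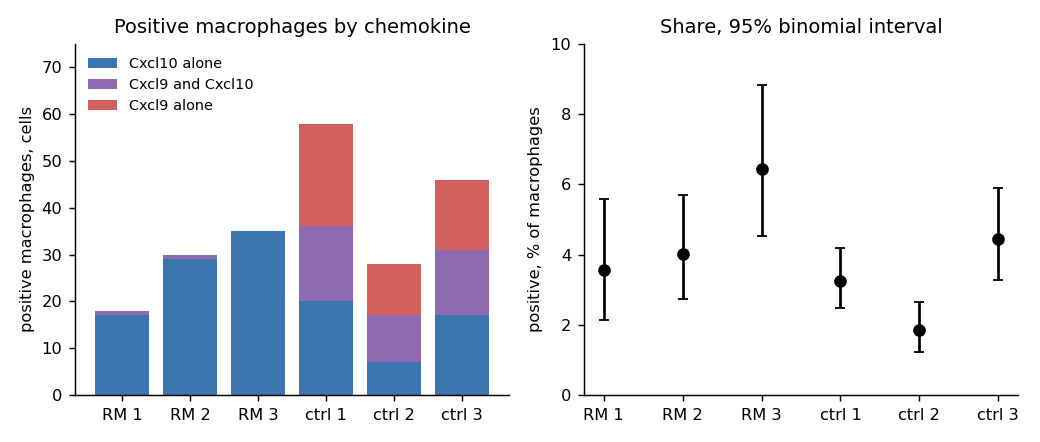
Left: number of positive macrophages per rhabdomyolysis (RM) and control (ctrl) library, stacked by whether the cell held UMIs of Cxcl10 alone, of both chemokines or of Cxcl9 alone. Right: their share of macrophages in percent, with exact 95% binomial intervals. Rhabdomyolysis libraries hold almost no cell with Cxcl9, while the shares, 3.57, 4.02 and 6.43% in rhabdomyolysis and 3.25, 1.84 and 4.45% in control libraries, overlap between the groups.

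Summed over all macrophages of a library, whatever their own chemokine count, Cxcl9 stood at 0.252, 0.426 and 0 counts per 1e+06 gene UMIs (CPM) in rhabdomyolysis and 90.6, 86.5 and 79.6 CPM in control libraries. That is 3 UMIs in all rhabdomyolysis macrophages against 1577 in control macrophages, a ratio of control to rhabdomyolysis of 394 per UMI sequenced with a counting interval of 134 to 1910. Cxcl10 stood at 31, 74.5 and 67.1 CPM in rhabdomyolysis and 64.6, 35.2 and 55.3 CPM in control macrophages, with overlapping groups. At a matched depth of 1000 UMIs a cell, the share of macrophages with a Cxcl9 UMI was 0.0159, 0.0602 and 0% in rhabdomyolysis and 1.79, 1.29 and 2.3% in control libraries. For Cxcl10 that matched share was 1.82, 2.71 and 3.26% in rhabdomyolysis and 1.41, 1 and 2.17% in control libraries. Thinning left out 11, 20 and 5 shallower macrophages in rhabdomyolysis and 40, 68 and 35 in control libraries. Unthinned, 0.198, 0.268 and 0% of macrophages held a Cxcl9 UMI in rhabdomyolysis and 2.69, 2.1 and 4.07% in control libraries, and 6.15, 5.63 and 9.38% held a Cxcl10 UMI in rhabdomyolysis and 3.3, 1.64 and 4.26% in control libraries. Cxcl9 was lower in every rhabdomyolysis library on each of these scales, while the Cxcl10 groups overlapped in CPM and at 1000 UMIs and did not overlap unthinned. At a matched depth of 2000 UMIs a cell, the Cxcl10 share was 3.03, 3.84 and 5.09% in rhabdomyolysis and 2.24, 1.49 and 2.97% in control libraries, with no overlap, after 31, 62 and 32 shallower macrophages in rhabdomyolysis and 231, 270 and 144 in control libraries were left out.

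The chemokine RNA sat in few cells. Positive macrophages held 89.5, 96.3 and 95.2% of the Cxcl9 and Cxcl10 UMIs of all macrophages in rhabdomyolysis and 97.1, 97.4 and 96% in control libraries. The median positive macrophage held 6, 5.5 and 6 chemokine UMIs in rhabdomyolysis and 5, 6.5 and 6 in control libraries, with overlapping groups. The highest cell held 15, 95 and 31 in rhabdomyolysis and 266, 150 and 118 in control libraries. The 3 highest cells of a library carried 30.6, 44.5 and 25.3% of the chemokine UMIs of its positive macrophages in rhabdomyolysis and 53.5, 50.3 and 39.8% in control libraries.

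The libraries held 10816727 to 22656666 gene UMIs in rhabdomyolysis and 16666253 to 19427318 in control. A deeper cell reaches 2 chemokine UMIs more easily, and positive macrophages were the deeper class. Their median gene UMIs were 9995.5, 7654.5 and 14278 in rhabdomyolysis, against 6366, 5003 and 7476 in negative macrophages, and 4153.5, 4524 and 4736 in control libraries, against 3611, 3630.5 and 4105 in negative macrophages. Free RNA, measured in barcodes of at most 100 UMIs, held Cxcl9 at 8.97, 1 and 3.64 CPM in rhabdomyolysis and 29.7, 40.4 and 57.1 CPM in control libraries, and Cxcl10 at 11.5, 35.2 and 29.1 CPM in rhabdomyolysis and 33.3, 28.9 and 32.6 CPM in control libraries. T cells, taken as a type that makes little of either chemokine, reached 2 or more such UMIs in 2, 2 and 0 of 74, 78 and 115 cells in rhabdomyolysis libraries and in 7, 5 and 10 of 687, 567 and 571 cells in control libraries. Those are 2.7, 2.56 and 0% of T cells in rhabdomyolysis, at median depths of 2278.5, 3400 and 3369 UMIs, and 1.02, 0.882 and 1.75% in control, at 3766, 3803 and 3635 UMIs. Every library had a higher share in macrophages than in T cells, with the smallest gap in rhabdomyolysis 1, and in rhabdomyolysis its macrophages were the deeper cells. The part of free RNA in positive macrophages near the threshold was not tested. Among B cells 0, 0 and 0 of 39, 88 and 90 reached 2 UMIs in rhabdomyolysis and 0, 0 and 1 of 428, 255 and 241 in control libraries. Of passing barcodes that were not macrophages, T or B cells, 7, 38 and 26 of 396, 621 and 758 did so in rhabdomyolysis. In control libraries 17, 11 and 13 of 577, 488 and 410 did. Those are 1.77, 6.12 and 3.43% in rhabdomyolysis and 2.95, 2.25 and 3.17% in control libraries. In rhabdomyolysis 2 and control 2 that share was above the share among macrophages. Across libraries 32 passing barcodes carried a sequence also seen in another library, 1 of them a positive macrophage.

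Markers of other cell types were measured beside those of macrophages. The 14 macrophage markers summed to 37731, 33603.5 and 29584 CPM in positive and 40977, 36064 and 32991 CPM in negative macrophages of rhabdomyolysis libraries, and to 45379, 40584 and 43459 CPM in positive and 55274, 50316 and 48873.5 CPM in negative macrophages of control libraries, with no marker at 0. The 12 natural killer cell markers summed to 8.64, 32.4 and 1.93 CPM in positive and 71.4, 25.9 and 127 CPM in negative macrophages of rhabdomyolysis libraries. In control libraries they summed to 431, 53.2 and 541 CPM in positive and 127, 37.8 and 92.7 CPM in negative macrophages, with 4, 11 and 2 of the 12 at 0 in the positive cells. Controls 1 and 3 thus carried natural killer cell RNA in their positive macrophages, and control 2 carried little. The 10 neutrophil markers were high in positive macrophages of control 2 alone, at 32.9, 1137 and 38.1 CPM in positive and 53.5, 66.8 and 41.5 CPM in negative macrophages of the control libraries. In rhabdomyolysis libraries they summed to 428, 334 and 769 CPM in positive and 1377, 581 and 779.7 CPM in negative macrophages. The 10 endothelial markers summed to 17.3, 615 and 21.2 CPM in positive and 109, 133 and 103 CPM in negative macrophages of rhabdomyolysis libraries. In control libraries they stood at 16.5, 472 and 194 CPM in positive and 291, 117 and 111 CPM in negative macrophages. Positive cells of rhabdomyolysis 2 and of controls 2 and 3 thus carried more endothelial RNA, and those of the other libraries less. The 12 conventional dendritic cell markers were at 229, 144 and 197 CPM in positive and 200.5, 170.2 and 226 CPM in negative macrophages of rhabdomyolysis libraries, and at 510.5, 406 and 400.3 CPM in positive and 426, 435 and 330.5 CPM in negative macrophages of control libraries. Macrophages with 2 or more UMIs of T, natural killer, B cell or neutrophil markers were 33.3, 26.7 and 54.3% of positive and 23.5, 20.6 and 29% of negative cells in rhabdomyolysis, and 63.8, 78.6 and 58.7% of positive and 60.9, 58 and 62.2% of negative cells in control libraries. No doublet caller was run, and the comparisons of positive with negative macrophages were repeated without such barcodes. That cut removes most macrophages of control libraries, and deeper cells reach 2 such UMIs more easily, so it does not single out doublets. Endothelial markers were not part of it.

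Ifit2 and Ifit3, named interferon-response markers that the threshold did not use, were both higher in positive than in negative macrophages of every control library, and in rhabdomyolysis Ifit3 alone was. Ifit3 stood at 86.4, 327 and 77.1 CPM in positive and 18, 84.5 and 26.2 CPM in negative macrophages of rhabdomyolysis libraries, higher in all 3. In control libraries it stood at 211, 313 and 183 CPM in positive and 48.8, 45.1 and 60.0 CPM in negative macrophages, again higher in all 3. Rhabdomyolysis 2 had the most in each class. Ifit2 stood at 13, 140.2 and 7.71 CPM in positive and 12.2, 60.9 and 10.7 CPM in negative macrophages of rhabdomyolysis libraries, so library 1 barely differed and library 3 was lower. In control libraries Ifit2 stood at 102, 213 and 172 CPM in positive and 27.7, 27.1 and 38.8 CPM in negative macrophages. A single cell held 75, 42.9 and 72.5% of the Ifit3 UMIs of positive macrophages in rhabdomyolysis and 26.6, 70.2 and 25% in control libraries. The cells are therefore named by the chemokines and not by an interferon response.

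In rhabdomyolysis, positive macrophages had more RNA of antiviral genes and of monocyte genes than negative macrophages of the same libraries, while the interferon-inducible GTPases differed mainly in library 2. UMIs were summed per library and class and tested with the edgeR quasi-likelihood test with the library as a term, over all genes, and a gene was called at a Benjamini-Hochberg adjusted p under 0.05. Of 8998 genes, 89 were called (0.989%), 69 higher (0.767%) and 20 lower (0.222%) in positive macrophages. For 29.7% of tested genes, called or not, all 3 rhabdomyolysis libraries went in the same direction. Of 45 tested antiviral genes, Ifit2 and Ifit3 among them, 14 rose and none fell, with a median log2 fold change of 0.63, against -0.02 over all genes. Positive macrophages of rhabdomyolysis were deeper than the negative ones, and among cells of 2000 to 10000 UMIs, which left 2 libraries, 2 genes were called. Among cells of 5000 or more UMIs, a choice made after seeing the data, 42 genes were called. Without the library term edgeR called 0 genes, with 206 at an unadjusted p under 0.05, and with that term DESeq2 called 30. Without cells holding other cell types' markers, in 3 libraries, 12 genes were called, and 13 named genes lost their call and 2 more, Ccl5 and H2-Ab1, changed sign.

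Isg15, a ubiquitin-like protein of the interferon response, had 138, 489 and 414 CPM in positive and 61.9, 138 and 112 CPM in negative macrophages of rhabdomyolysis libraries (log2 fold change 1.75 ± 0.13 (SE), adjusted p = 7.41e-11). It was higher in all 3, and negative cells of library 2 stood level with positive cells of library 1. It was seen in 11, 21 and 21 of the 18, 30 and 35 positive cells, and 1 cell held 53.1, 54.4 and 25.1% of its UMIs. Ifit1, which binds viral RNA ends, had 30.2, 97.1 and 30.8 CPM in positive and 4.44, 19.5 and 10.9 CPM in negative macrophages (log2 fold change 2.12 ± 0.32 (SE), adjusted p = 0.000135). UMIs of Ifit1 were seen in only 3, 7 and 6 positive cells, and DESeq2 gave it no adjusted p. Irf7, the transcription factor that amplifies type I interferon, had 90.7, 277 and 141 CPM in positive and 54.7, 123 and 73.6 CPM in negative macrophages (log2 fold change 1.02 ± 0.15 (SE), adjusted p = 6.88e-05). All 3 genes stood higher in positive cells of every library, with library 2 highest in each class. Zbp1, a sensor of nucleic acids, also rose (log2 fold change 0.63, adjusted p = 0.0179), a call lost without library 1 or 3. Among cells of 5000 or more UMIs the fold changes were 1.79 for Isg15 and 2.16 for Ifit1, both still called, and in the 2000 to 10000 UMI window the same genes stood at 1.04 and 1.88 on the log2 scale and were not called. With cells of other types' markers left out, Isg15 stood at 1.10 (adjusted p = 0.189), Irf7 at 0.56 and Zbp1 at 0.66 with no call, while Ifit1 was still called at 2.35. In sums over cells, fewer cells with a gene and less RNA per cell cannot be told apart.

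Of 13 tested GTPases 3 rose and none fell, with a median of 0.69. Gbp2 had 4.32, 158 and 19.3 CPM in positive and 5.83, 48.6 and 10.2 CPM in negative macrophages of rhabdomyolysis libraries (log2 fold change 1.36 ± 0.30 (SE), adjusted p = 0.0149). Library 1 went the other way, and without library 2 the log2 fold change was 0.70 (adjusted p = 0.946). Iigp1, an immunity-related GTPase, had 0, 162 and 1.93 CPM in positive and 0.555, 26.6 and 3.95 CPM in negative macrophages (log2 fold change 2.07 ± 0.43 (SE), adjusted p = 0.00754), with nearly all of its RNA in library 2. Ifi47, another of them, rose by 0.82 (adjusted p = 0.0486), a call lost without library 1 or 3. With cells of other types' markers left out, Gbp2 stood at 1.17 and Ifi47 at 0.43 with no call, and Iigp1 was still called at 2.58. Library 2 was also the library whose negative macrophages had the most GTPase RNA, 598 CPM over the 18 genes against 169 and 189.9 CPM in libraries 1 and 3. Positive macrophages of library 2 carried endothelial RNA as well, and its part in these differences was not tested.

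Of monocyte genes, 6 of 22 were higher and none lower in positive macrophages of rhabdomyolysis. The monocyte gene Ly6c2 was not called, at 1.04 on the log2 scale (edgeR adjusted p = 0.456) and at -0.11 without library 3. Plac8, expressed by blood monocytes, had 259, 478 and 547 CPM in positive and 195, 117 and 303 CPM in negative macrophages (log2 fold change 1.15 ± 0.16 (SE), adjusted p = 4.31e-05). Chil3, a chitinase-like protein of recruited monocytes, had 2138, 1438 and 1561 CPM in positive and 1521.5, 700.3 and 1052 CPM in negative macrophages (log2 fold change 0.72 ± 0.08 (SE), adjusted p = 1.4e-06). Both were higher in every library, yet Chil3 was seen in only 5, 7 and 11 positive cells, 1 of which held 44.2, 56.8 and 25.1% of its UMIs. Ms4a4c, a membrane protein of Ly6C-high monocytes, Ifitm6 and the haptoglobin gene Hp rose by 1.49, 1.36 and 1.14 on the log2 scale, and the Ifitm6 call was lost without library 1 or 2. Ms4a4c is counted among the antiviral genes here, so these genes are not a group apart from those. Pf4, platelet factor 4 and a gene of tissue macrophages, fell by 0.89 and Maf, a transcription factor of resident macrophages, by 0.99, the Maf call being lost without library 1 or 2. Without cells holding other cell types' markers, Plac8 stood at 0.83, Chil3 at 0.21, Ms4a4c at 1.18, Ifitm6 at 0.52 and Hp at 0.78, none of them called, after 6, 8 and 19 positive cells were left out.

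Of the chemokines in rhabdomyolysis, 3 of 17 rose and 2 fell. Ccl12, a monocyte attractant that binds CCR2, had 613, 291 and 1245 CPM in positive and 479, 134 and 1113 CPM in negative macrophages (log2 fold change 0.49 ± 0.11 (SE), adjusted p = 0.0217), and 1 cell held 86.4% of its UMIs in library 2. The Ccl12 call was lost without library 1 or 2, and without cells holding other cell types' markers (log2 fold change 0.46). Ccl5, a T cell attractant, had 38.9, 43.1 and 19.3 CPM in positive and 100.0, 106 and 70.6 CPM in negative macrophages (log2 fold change -1.49 ± 0.23 (SE), adjusted p = 0.000163). It was lower in all 3 libraries and was seen in 1, 3 and 1 positive cells. T cell markers were lower in the same cells, at 4.32, 10.8 and 7.71 CPM in positive and 68.6, 33.6 and 66.8 CPM in negative macrophages over 14 genes. Without cells that held other cell types' markers the Ccl5 fold change was 1.42 and not called (adjusted p = 0.692). The fall was thus not seen once those cells were left out. Of 17 MHC class II genes 4 rose. H2-Eb1, a class II beta chain, had 1788.5, 1664 and 1846 CPM in positive and 1065, 1681 and 1088 CPM in negative macrophages (log2 fold change 0.53 ± 0.10 (SE), adjusted p = 0.00155), with no gain in library 2 and a call lost without library 1 or 3. In the 2000 to 10000 UMI window it stood at -0.73 on the log2 scale, H2-Ab1 at -0.74 and Cd74, the class II invariant chain, at -0.32, the opposite direction in each case, with no call. Once cells with other types' markers were left out, these 3 genes stood at 0.08, -0.08 and 0.05 with no call.

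In control kidneys positive macrophages had more RNA than negative ones of most interferon-inducible GTPases, of class I antigen processing genes, of several chemokines and of Serpina3g and C3. Of 9771 genes, 324 were called (3.32%), 226 higher (2.31%) and 98 lower (1%) in positive macrophages. For 34.2% of tested genes, called or not, all 3 control libraries went in the same direction. The share of all genes whose positive and negative libraries do not overlap was not computed. Where a gene of control is said not to overlap, that is therefore only a description. Of 17 tested GTPases 14 rose and none fell, with a median log2 fold change of 1.90, against -0.06 over all genes. Of 45 antiviral genes 23 rose and none fell (median 0.78), and of 23 immune genes known as interferon gamma targets 14 rose and none fell (median 1.5). Without cells holding other cell types' markers, 2 libraries were left and 33 genes were called, with 23 named genes losing their call, and without control 1 the count was 176.

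Gbp2 had 352, 386 and 217 CPM in positive and 8.84, 11.3 and 18.3 CPM in negative macrophages of control libraries (log2 fold change 4.61 ± 0.24 (SE), adjusted p = 4.73e-16). Positive cells of every library stood far above negative cells of every library, and Gbp2 was seen in 16, 13 and 18 of the 58, 28 and 46 positive cells, with no cell above 29.3% of its UMIs. Iigp1 had 181, 159.6 and 233 CPM in positive and 11.9, 12 and 37 CPM in negative macrophages (log2 fold change 3.30 ± 0.23 (SE), adjusted p = 3.95e-12). Gbp7 had 98.8, 153 and 122 CPM in positive and 21.9, 25.9 and 27.7 CPM in negative macrophages (log2 fold change 2.22 ± 0.23 (SE), adjusted p = 1.42e-08). Neither gene overlapped between the classes. Gbp5, which takes part in inflammasome assembly, rose by 3.65, Ifi47 by 1.90, Igtp by 1.67 and Irgm1 by 1.67 on the log2 scale. Of these 7 genes, the Igtp call alone ended without cells holding other cell types' markers, at 1.91 (adjusted p = 0.173).

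Antiviral genes rose in control as well. Isg15 had 283, 293 and 244 CPM in positive and 60.4, 46.2 and 64.3 CPM in negative macrophages of control libraries (log2 fold change 2.19 ± 0.16 (SE), adjusted p = 1.09e-11). Ifit1 had 46.1, 159.6 and 61 CPM in positive and 8.55, 7.21 and 12.9 CPM in negative macrophages (log2 fold change 3.0 ± 0.37 (SE), adjusted p = 8.47e-07), with UMIs in 5, 6 and 6 positive cells only and 2.31 without control 2. Irf7 had 151, 239 and 160.1 CPM in positive and 55, 39.5 and 58.6 CPM in negative macrophages (log2 fold change 1.73 ± 0.20 (SE), adjusted p = 2.45e-07). No positive library overlapped a negative one for any of the 3. Zbp1 rose by 1.76 on the log2 scale. Without cells holding other cell types' markers, Ifit1 stood at 1.74, Irf7 at 1.20 and Zbp1 at 0.94 with no call, while Isg15 was still called at 2.85.

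**Figure D2:**
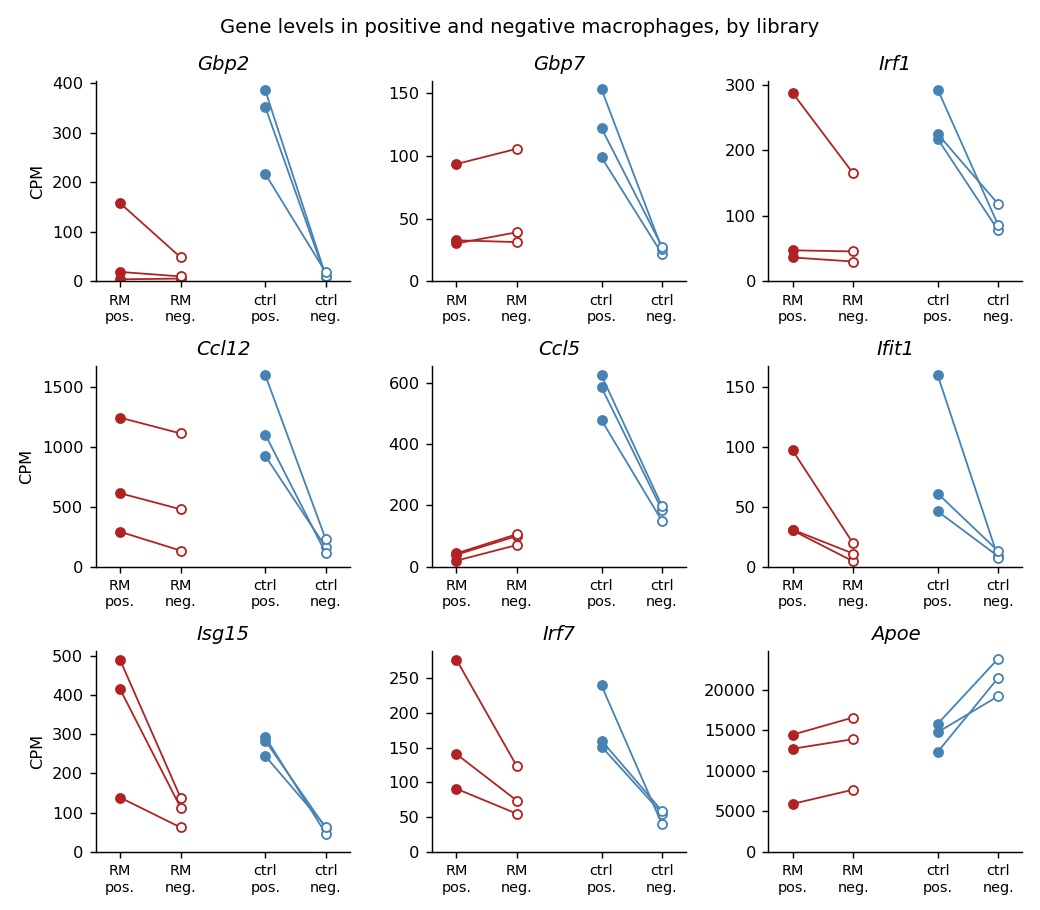
Level in CPM of 9 genes in each library, with filled points for positive and open points for negative macrophages and lines joining the classes of a library, rhabdomyolysis (RM) left of control (ctrl). Gbp2, Gbp7, Irf1 and Ccl5 are higher in positive than in negative cells of every control library, and Ifit1, Isg15 and Irf7 are so in all 6 libraries. Apoe is lower in positive cells of every control library.

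Among signalling genes of control positive macrophages, interferon regulatory factors rose and 2 receptor chains fell. Irf1, the interferon gamma-induced factor that drives class I and GTPase genes, had 217, 293 and 225 CPM in positive and 77.8, 85.6 and 118 CPM in negative macrophages of control libraries (log2 fold change 1.31 ± 0.16 (SE), adjusted p = 1.08e-06). Positive and negative libraries did not overlap. Of 14 interferon regulatory factors 5 rose, among them Irf8, a factor of the monocyte and dendritic cell lineages, by 0.67. Batf2, a partner of IRF proteins, rose by 2.25, and both calls ended without control 1, while without control 3 Batf2 stood at 2.85. Of 20 receptor, JAK and STAT genes 2 rose and 2 fell. The receptor chains Ifngr1, of the interferon gamma receptor, and Il10rb, shared by the interleukin 10 and interferon lambda receptors, fell by 0.46 and 0.69 on the log2 scale. The Ifngr1 call ended without control 1 or control 2, and the Il10rb call without control 1. Socs1, the feedback inhibitor of JAK kinases, rose by 2.79 (SE 0.40, adjusted p = 1.17e-05).

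Chemokines split in control, with 5 of 15 higher and 3 lower in positive macrophages. Ccl12 had 925, 1104 and 1601 CPM in positive and 162, 112 and 228 CPM in negative macrophages of control libraries (log2 fold change 2.80 ± 0.12 (SE), adjusted p = 1.33e-18). Ccl5 had 586, 479 and 625 CPM in positive and 185, 149 and 197 CPM in negative macrophages (log2 fold change 1.62 ± 0.12 (SE), adjusted p = 1.09e-11). Both were higher in every library without overlap. Natural killer cells make Ccl5 too, and the part of their RNA in this difference was not tested. In the fit without cells holding other cell types' markers Ccl5 stood at 2.10 on the log2 scale and was still called. A single cell held 24.7, 62.5 and 59.8% of the Ccl5 UMIs of positive cells, and among cells of 5000 or more UMIs the fold change was 0.78 (adjusted p = 0.0422). Ccl8, another CC chemokine, rose by 3.53 on 6, 14 and 10 UMIs, all those of control 3 from 1 cell. Ccl2, the main monocyte attractant, rose by 0.96, a call that ended without control 2, and Cxcl16, the membrane-bound ligand of CXCR6, by 0.46, a call that ended without control 1. Ccl6 and Ccl9, chemokines that myeloid cells make constitutively in mice, fell by 0.73 and 0.84, and the Ccl9 call ended whichever library was left out.

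Antigen processing for MHC class I rose widely in control, with 16 of 24 genes higher, none lower and a median of 0.70. Tap1, the peptide transporter, rose by 1.20, Psmb9, an immunoproteasome subunit, by 0.77, Psme2, the proteasome activator, by 1.17 and Nlrc5, the class I transactivator, by 1.41. The Nlrc5 call ended without control 3. For MHC class II 2 of 16 genes rose and none fell, with a median of -0.12, and Ifi30, the lysosomal thiol reductase, rose by 0.86. Cd40, the costimulatory receptor, had 175, 113 and 61 CPM in positive and 11.4, 11.7 and 9.93 CPM in negative macrophages (log2 fold change 3.32 ± 0.30 (SE), adjusted p = 1.44e-09). Cd274, which encodes the T cell inhibitor PD-L1, rose by 2.88 and Cd69, an activation marker, by 2.15. Nfkbia, the NF-kB inhibitor and target, rose by 1.05, and of 22 genes of NF-kB, Tnf and interleukins it was 1 of the 8 that rose.

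Some genes with large fold changes in control positive macrophages were nearly silent in the negative cells. Serpina3g, a serine protease inhibitor induced by interferon gamma, had 132, 133 and 103 CPM in positive and 1.3, 1.89 and 2.26 CPM in negative macrophages (log2 fold change 6.03 ± 0.38 (SE), adjusted p = 1.52e-13). C3, the central complement protein, had 56, 79.8 and 38.1 CPM in positive and 1.74, 2.75 and 2.71 CPM in negative macrophages (log2 fold change 4.52 ± 0.52 (SE), adjusted p = 1.97e-07). Neither overlapped between classes, although C3 was seen in only 8, 7 and 3 positive cells. Dnase1l3, a secreted DNase of myeloid cells, had 224, 253 and 156 CPM in positive and 22.5, 24.4 and 31.8 CPM in negative macrophages (log2 fold change 2.95 ± 0.21 (SE), adjusted p = 4.05e-12). Calhm6, a channel protein induced by interferon, rose by 2.17. Clec9a, the receptor for dead cells on type 1 dendritic cells, had 69.2, 79.8 and 57.2 CPM in positive and 22.3, 24.2 and 22.6 CPM in negative macrophages (log2 fold change 1.51 ± 0.27 (SE), adjusted p = 0.000472), and it was the 1 of 6 tested conventional dendritic cell markers that rose. The part of dendritic cell RNA in that difference was not tested.

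Genes of resident macrophages were lower in control positive macrophages, with 8 of 30 lower, 1 higher and a median of -0.32. Apoe, the lipid carrier, had 15785, 12311 and 14742 CPM in positive and 23824, 21458 and 19196 CPM in negative macrophages (log2 fold change -0.65 ± 0.08 (SE), adjusted p = 1.8e-06). It was lower in every library, with no overlap. Mrc1, the mannose receptor, Cd14, the lipopolysaccharide co-receptor, and Mmp12, macrophage elastase, fell by 0.74, 0.52 and 1.34 on the log2 scale. Abca9, a transporter of the resident gene set, fell by 1.45. The Mrc1 call ended without control 1, and Apoe stood at -0.30 with no call without cells holding other cell types' markers. Of the marker lists, 4 of 7 tested natural killer cell genes and 3 of 5 neutrophil genes rose in these cells, which are the values given above for controls 1 and 3 and for control 2.

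Whether the difference between positive and negative macrophages itself differed between the conditions was tested as an interaction over all 6 libraries. Of 10128 genes 67 were called (0.662%). In 18 the fold change was higher in rhabdomyolysis (0.178%) and in 49 it was lower (0.484%). Of 17 GTPases 4 were lower and none higher, with a median interaction of -1.33, against -0.02 over all genes, and all 17 had a value below 0. Of 46 antiviral genes 2 were lower and none higher (median -0.15), and of 26 interferon gamma targets 5 were lower and 1 higher (median -1.15).

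For Gbp2 the interaction was -3.26 ± 0.37 on the log2 scale (SE, adjusted p = 2.07e-09), from a fold change of 1.36 in rhabdomyolysis and 4.61 in control, and was -3.91 without rhabdomyolysis 2. For Gbp7 it was -2.34 ± 0.31 (adjusted p = 1.25e-07), with 30.2, 93.5 and 32.8 CPM in positive and 39.1, 106 and 31.3 CPM in negative macrophages of rhabdomyolysis libraries. Gbp7 stood lower in positive than in negative cells of rhabdomyolysis libraries 1 and 2. Gbp5 was at -2.23 (adjusted p = 0.0223) and Ifi47 at -1.10 (adjusted p = 0.0259), both calls lost without rhabdomyolysis 2 or control 1, and that of Ifi47 also without control 2. Iigp1 was not called at -1.25 ± 0.46 (adjusted p = 0.364), and without rhabdomyolysis 2 it was called at -4.36. Irf8 was at -0.81 (adjusted p = 0.0199), a call lost without control 1 or rhabdomyolysis 3, while Irf7 was at -0.71 with no call. Irf1 was at -0.77 with no call, but was called without rhabdomyolysis 2, at -1.15, and without control 3, at -1.09. Isg15 at -0.45 ± 0.20 (adjusted p = 0.601) and Ifit1 at -0.89 (adjusted p = 0.736) were not called either, although in the 2000 to 10000 UMI window Isg15 was called at -1.49 and Irf7 at -1.53.

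**Figure D3:**
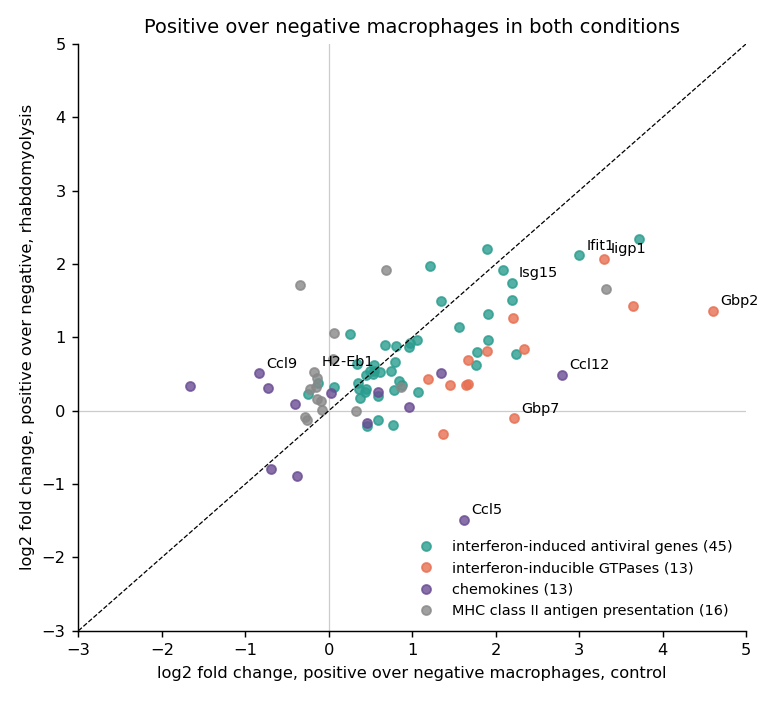
Log2 fold change of positive over negative macrophages in rhabdomyolysis (vertical) and in control (horizontal) for 45 antiviral genes, 13 interferon-inducible GTPases, 13 chemokines and 16 MHC class II genes, with a dashed line of equality. Most GTPases lie below the line, Gbp2 at 1.36 in rhabdomyolysis and 4.61 in control, while Isg15 lies nearer to it at 1.75 in rhabdomyolysis and 2.19 in control.

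The conditions also differ in which chemokine chose the cells, so the interaction was recomputed with the positive macrophages that held Cxcl10 alone, an alternative chosen after seeing the data, which left 5 libraries with 10 such cells and 31 calls. Gbp2 then stood at -0.15, Gbp5 at -0.64 and C3 at -0.53 on the log2 scale, none of them called. Ifi47 at -0.59, Irf8 at -0.52, Cd274 at -1.53 and Serpina3g at -2.38 also lost their calls, as did Ccl6 at 0.83, Lyz2 at 0.52 and Cd74 at 0.51, and Psme2 changed sign to 0.53 with no call. Gbp7 at -2.37, Ccl12 at -2.16 and Ccl5 at -3.68 were still called. The Gbp2 difference between the conditions was thus not seen when cells with Cxcl9 were left out, and that of Gbp7 was.

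Among chemokines the interaction was lower for 5 of 19 genes and higher for 2. Ccl5 was at -3.12 ± 0.25 (adjusted p = 4.9e-16) and Ccl12 at -2.32 ± 0.17 (adjusted p = 1.02e-17), and both calls held whichever library was left out. The interaction was not run without cells holding other cell types' markers. In that setting the Ccl5 fold change in rhabdomyolysis was 1.42 on the log2 scale with no call, instead of -1.49. In control Ccl5 was still called higher there. Ccl12 was already at 479, 134 and 1113 CPM in negative macrophages of rhabdomyolysis libraries, against 162, 112 and 228 CPM in negative macrophages of control libraries. Ccl9 and Ccl6 had interactions of 1.34 and 1.03, the opposite direction, and neither was called in the 2000 to 10000 UMI window, at 0.85 and 0.25. C3 was at -4.04 (adjusted p = 0.000451), Serpina3g at -4.11 (adjusted p = 0.0271), Cd274 at -2.52 (adjusted p = 0.0239) and Psme2 at -0.92 (adjusted p = 0.00506). The Serpina3g and Cd274 calls were each lost without control 1 and without rhabdomyolysis 2, and that of Serpina3g also without rhabdomyolysis 1, while that of Psme2 was lost without control 2. Without rhabdomyolysis 3 Serpina3g stood at -5.60. Serpina3g rests on 0, 1 and 3 UMIs in positive macrophages of rhabdomyolysis libraries.

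MHC class II genes went the other way, with 4 of 17 higher in the interaction. H2-Eb1 was at 0.69, H2-Ab1, a class II beta chain, at 0.58, Cd74 at 0.50 and Ciita, the class II transactivator, at 1.96 on the log2 scale. These turned round with cell depth: among cells of 2000 to 10000 UMIs H2-Eb1 was at -0.85 and H2-Ab1 at -0.99, both called, and Cd74 at -0.35 and Ciita at -0.19. H2-Eb1 also lost its call without rhabdomyolysis 3, H2-Ab1 without rhabdomyolysis 1, rhabdomyolysis 3, control 1 or control 3, Ciita without rhabdomyolysis 1 or 2, and Cd74 without any 1 library other than rhabdomyolysis 2. No direction is therefore read for class II genes. Lyz2, lysozyme, was at 0.78 (adjusted p = 3.23e-06) and Mmp12 at 1.14 (adjusted p = 0.0428), the Mmp12 call being lost without rhabdomyolysis 2, rhabdomyolysis 3 or control 3.

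Positive macrophages of control kidneys varied with the chemokine they held. Cells with Cxcl10 alone had more RNA of Il1b, of CC chemokines and of 3 antiviral genes, and cells with Cxcl9 alone had more Gbp2, C3 and Dnase1l3. Controls 1 and 3 held at least 10 cells of each kind, with 20 and 17 Cxcl10-alone and 22 and 15 Cxcl9-alone cells, and were tested with the library as a term. Of 1554 genes 41 were called by edgeR (2.64%), 25 higher (1.61%) and 16 lower (1.03%) in Cxcl10-alone cells, while DESeq2 called 1, Il1b. Of 9 tested chemokines 6 rose and none fell, with a median of 1.13, against 0.01 over all genes. Of 7 genes of NF-kB, Tnf and interleukins 4 rose (median 1.15), and of 26 antiviral genes 3 rose.

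Il1b, interleukin 1 beta, had 1304 and 2042 CPM in Cxcl10-alone and 356 and 255 CPM in Cxcl9-alone cells (log2 fold change 2.37 ± 0.24 (SE), adjusted p = 4.64e-14), higher in both libraries. Ccl12 had 1030.5 and 1660 CPM in Cxcl10-alone and 67.9 and 560.0 CPM in Cxcl9-alone cells (log2 fold change 2.45 ± 0.28 (SE), adjusted p = 7.16e-12). Ccl2 had 56 and 26 UMIs in Cxcl10-alone and 1 and 1 UMIs in Cxcl9-alone cells, a ratio of 31.2 with a counting interval of 8.36 to 262, but 1 cell held 78.6 and 65.4% of its UMIs. These are the cytokine and the CCR2 ligands by which macrophages are known to recruit monocytes. Ccl3, Ccl4 and Ccl5, further CC chemokines, rose by 0.83, 1.13 and 1.22 on the log2 scale, and Cxcl2, a neutrophil attractant, by 3.4. Single cells weigh here too, since 1 cell held 65.2 and 85.5% of the Cxcl2 UMIs of Cxcl10-alone cells, 53.1 and 77.2% of those of Ccl5 and 51.3 and 45.6% of those of Ccl12. Cd83, a maturation marker, Tlr2, a receptor for bacterial lipoproteins, and Nfkbia rose by 2.76, 1.77 and 1.15, and Apoe by 0.97.

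Ifit1 had 10 and 14 UMIs in Cxcl10-alone cells and none in Cxcl9-alone cells, which makes it at least 6.08-fold higher against a floor of 3 counts over the group. Rsad2, the antiviral protein viperin, had 31 UMIs in Cxcl10-alone and 3 in Cxcl9-alone cells, a ratio of 7.86 with a counting interval of 2.45 to 40.1. The natural killer cell gene Nkg7 was higher in the same cells, at 19 and 17 UMIs against none, at least 9.12-fold, from 1 and 3 cells, and its part in the Ccl5 difference was not tested. In the other direction Gbp2 had 0 and 81.4 CPM in Cxcl10-alone and 331 and 204 CPM in Cxcl9-alone cells (log2 fold change -2.66 ± 0.51 (SE), adjusted p = 0.000105). Psme2 had 155 and 171 CPM in Cxcl10-alone and 535 and 441 CPM in Cxcl9-alone cells (log2 fold change -1.53 ± 0.35 (SE), adjusted p = 0.00244). Dnase1l3 had 54.7 and 48.8 CPM in Cxcl10-alone and 246 and 272 CPM in Cxcl9-alone cells (log2 fold change -2.24 ± 0.47 (SE), adjusted p = 0.000519). All 3 were lower in Cxcl10-alone cells of both libraries, and 56.7% of all tested genes went in the same direction in both. C3 had 1 and 0 UMIs in Cxcl10-alone and 12 and 10 UMIs in Cxcl9-alone cells, a ratio of Cxcl9-alone to Cxcl10-alone of 28.9 with a counting interval of 4.68 to 1194. Calhm6 and Slamf8, a receptor of myeloid cells induced by interferon gamma, fell by 1.94 and 1.51. The other 4 tested GTPases and the 13 MHC class II genes held no called gene.

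**Figure D4:**
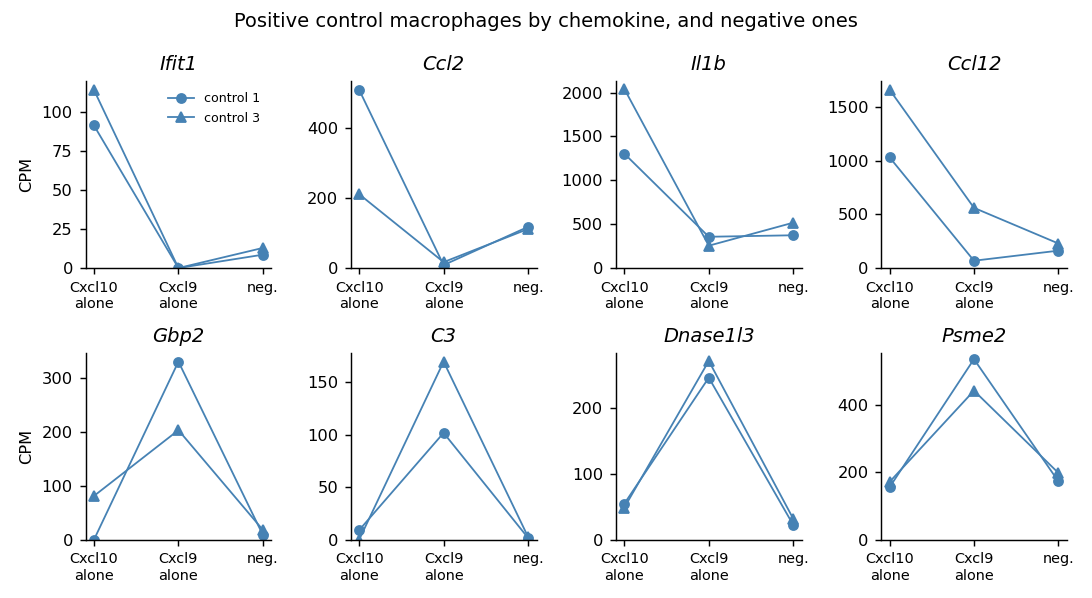
Level in CPM of 8 genes in control libraries 1 and 3, for positive macrophages with Cxcl10 alone, for those with Cxcl9 alone and for negative macrophages. Il1b, at 1304 and 2042 CPM in Cxcl10-alone and 356 and 255 CPM in Cxcl9-alone cells, and Ccl12 are highest with Cxcl10 alone, while Gbp2, C3, Dnase1l3 and Psme2 are highest with Cxcl9 alone.

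Set against each other, positive macrophages of rhabdomyolysis and control kidneys differed in many genes beyond the chemokines. Of 3360 genes 772 were called (23%), 340 higher (10.1%) and 432 lower (12.9%) in rhabdomyolysis. The same comparison over all macrophages tested 10542 genes, of which 4604 were called (43.7%), 2294 higher (21.8%) and 2310 lower (21.9%). Of 18 injury and repair genes 13 rose and none fell in positive macrophages (median 2.79), against 20 of 22 that rose in all macrophages (median 4.26). Of 13 MHC class II genes 8 fell (median -2.34), and of 21 class I processing genes 15 fell (median -0.99), against 10 of 17 and 10 of 24 in all macrophages. Of 11 GTPases 6 fell (median -1.64), against 4 of 16 (median -0.46), and of 37 antiviral genes 4 fell and 1 rose (median -0.47), against 6 and 6 of 45 in all macrophages. The counts in positive macrophages come from fewer tested genes and moved with the libraries, being 1429 without rhabdomyolysis 2 and 363 without control 3.

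Chil3 had 2138, 1438 and 1561 CPM in positive macrophages of rhabdomyolysis and no UMI in those of control libraries, at least 396-fold higher against a floor of 3 counts over the group. Saa3, an acute phase protein, had 95, 694 and 771 CPM in rhabdomyolysis and no UMI in control libraries, at least 143-fold higher, from 2, 5 and 6 cells. Fn1, fibronectin, and Lcn2, the iron-binding lipocalin and kidney injury marker, were at least 44.6-fold and 23-fold higher. These are genes of recruited monocytes and injured tissue. Spp1, osteopontin, had 2868.5, 198 and 4514 CPM in rhabdomyolysis and 29.6, 13.3 and 7.62 CPM in control libraries (log2 fold change 7.04 ± 1.03 (SE), adjusted p = 0.000799), with 1 cell holding 42.6, 94.5 and 56.8% of its UMIs in rhabdomyolysis. Plac8 and S100a4, a calcium-binding protein of motile cells, rose by 3.88 and 3.12 on the log2 scale. These values moved with single libraries: Plac8 stood at 6.72 without control 2 and 3.08 without control 1, S100a4 at 4.93 without control 1, and Spp1 at 6.36 without rhabdomyolysis 3 and 7.86 without control 1. DESeq2 did not call Plac8 (adjusted p = 0.122).

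The chemokine and antigen presentation genes of the control positive cells were low in those of rhabdomyolysis. For class II this was not particular to positive cells. In negative macrophages the 18 class II genes summed to 13759, 17490 and 13526 CPM in rhabdomyolysis and 104115, 105484 and 108218 CPM in control libraries. In positive macrophages they summed to 17237, 17043 and 16973.5 CPM in rhabdomyolysis and 98566, 92787 and 101744 CPM in control libraries. Ccl5 had 38.9, 43.1 and 19.3 CPM in rhabdomyolysis and 586, 479 and 625 CPM in control libraries (log2 fold change -4.19 ± 0.32 (SE), adjusted p = 1.48e-05). Cd74 had 5962, 4806 and 6065 CPM in rhabdomyolysis and 44239, 38715 and 45495 CPM in control libraries (log2 fold change -2.98 ± 0.16 (SE), adjusted p = 7.21e-07). H2-Ab1 had 1706, 1495 and 1918 CPM in rhabdomyolysis and 15729, 16128 and 15291 CPM in control libraries (log2 fold change -3.25 ± 0.16 (SE), adjusted p = 2.88e-07). None of the 3 overlapped between the groups, which was so for 41.8% of all genes tested. Ciita fell by 3.38 and Irf8 by 2.13, and Slamf7, a receptor of the SLAM family, Slamf8, Serpina3g, Gbp8 and Calhm6 fell by 3.74, 3.86, 4.90, 4.10 and 3.89. Without rhabdomyolysis 3 Serpina3g stood at -5.62, Gbp8 at -3.47 and Calhm6 at -3.04, and without rhabdomyolysis 2 Calhm6 stood at -5.61. Dnase1l3 had 1 UMI in rhabdomyolysis and 147 in control libraries, a ratio of control to rhabdomyolysis of 211 with a counting interval of 37.3 to 8393. Clec9a had no UMI in rhabdomyolysis and 69.2, 79.8 and 57.2 CPM in control libraries, at least 23-fold lower. Cx3cr1, the fractalkine receptor of resident macrophages, and Mrc1 fell by 2.79 and 1.20, Cx3cr1 standing at -4.35 without rhabdomyolysis 3, while Apoe was at -0.41 with no call (adjusted p = 0.33) and was called without rhabdomyolysis 2, at -0.65.

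Interferon genes divided here too. Isg15 was at 0.32 ± 0.36 (SE, adjusted p = 0.554) and Ifit1 at -0.70 (adjusted p = 0.379), neither called, though without rhabdomyolysis 2 Ifit1 was called at -1.39. Gbp2 fell by 2.46 (adjusted p = 0.0275), and the call was lost in every fit that left out a library except that without rhabdomyolysis 2. Among Cxcl10-alone cells Gbp2 was at 0.24 on the log2 scale, with no call, so the Gbp2 difference between the conditions again was not seen without the cells that held Cxcl9. Over all macrophages Gbp2 had 5.54, 54.5 and 11.6 CPM in rhabdomyolysis and 23.1, 20.8 and 30.7 CPM in control libraries, with overlapping groups.

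The level of GTPase RNA was higher in macrophages with 10 or more chemokine UMIs than in those with none, by a larger ratio in control than in rhabdomyolysis libraries. Over 18 GTPase genes the sum was 237, 1458 and 305 CPM in macrophages of rhabdomyolysis libraries with 10 or more chemokine UMIs and 169, 598 and 189.9 CPM in those with none. In control libraries it was 3408, 2451 and 2348 CPM with 10 or more and 281, 317 and 447 CPM with none. The ratio of the highest to the lowest bin was larger in every control library than in any rhabdomyolysis library. The 48 antiviral genes summed to 7393, 12740.5 and 8418 CPM with 10 or more and 3782, 5219.6 and 4917 CPM with none in rhabdomyolysis libraries, and to 10096, 9019 and 8716 CPM with 10 or more and 4589, 4398 and 4992 CPM with none in control libraries. For these genes that ratio overlapped between the conditions. The highest bin holds 2, 11 and 11 cells in rhabdomyolysis and 16, 13 and 16 in control libraries, so these sums are given as a description. Its median depth was 14744.5, 7727 and 14961 UMIs in rhabdomyolysis and 4904, 5217 and 5988.5 in control libraries. Positive macrophages held 1, 1 and 0 Cxcl9 UMIs in rhabdomyolysis and 659, 513 and 371 in control libraries. The bins thus differ in chemokine between the conditions, and the ratio was not recomputed for cells with Cxcl10 alone.

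**Figure D5:**
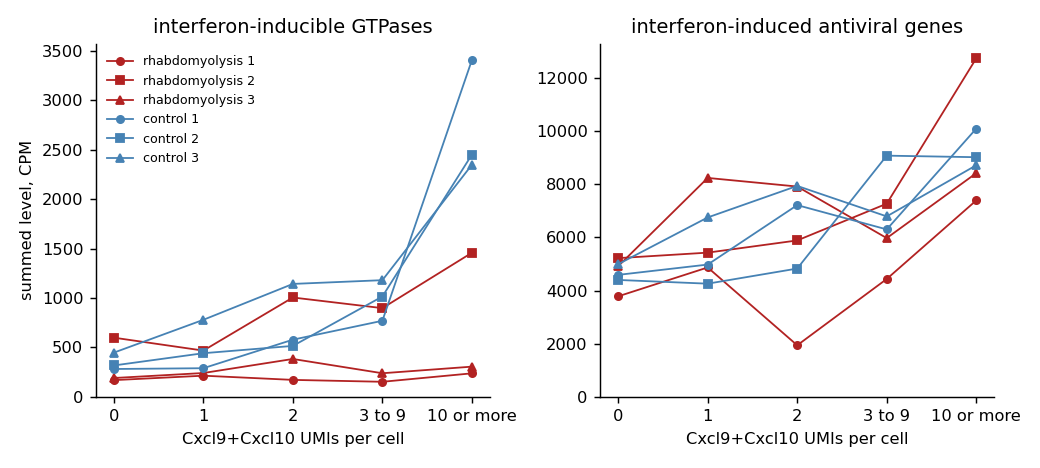
Summed level in CPM of 18 interferon-inducible GTPases (left) and 48 antiviral genes (right) in macrophages grouped by their number of Cxcl9 and Cxcl10 UMIs, 1 line per library. GTPases reach 237, 1458 and 305 CPM in the highest bin of rhabdomyolysis libraries and 3408, 2451 and 2348 CPM in that of control libraries, while the antiviral lines end above their start in all 6 libraries. The UMIs that set the bins are almost all Cxcl10 in rhabdomyolysis libraries and both chemokines in control libraries.

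The other ends of this pathway were measured in the same libraries. Ifng, the interferon gamma gene, had 11, 9 and 84 UMIs over all passing barcodes of rhabdomyolysis and 295, 270 and 413 of control libraries, and in positive macrophages it had none in rhabdomyolysis and 1, 0 and 2 in control libraries. Cxcr3, the receptor of both chemokines, had 55, 46 and 101 UMIs over all passing barcodes of rhabdomyolysis and 2020, 1455 and 1311 of control libraries. Those barcodes include 74, 78 and 115 T cells in rhabdomyolysis and 687, 567 and 571 in control libraries by 2 or more UMIs of Cd3 genes. On the protein side, the antibody tag for F4/80, a macrophage surface protein, had a median of 45.5, 64.5 and 64 tag UMIs in positive and 32, 44 and 56 in negative macrophages of rhabdomyolysis libraries. In control libraries it had 101, 61.5 and 55.5 in positive and 92, 62 and 47 in negative macrophages. Per 1000 gene UMIs, which were more numerous in positive cells, the order in rhabdomyolysis turned round: F4/80 had 3.74, 7.12 and 6.28 tag UMIs in positive and 12.1, 8.41 and 8.03 in negative macrophages of rhabdomyolysis libraries. On that scale control libraries had 23, 12.1 and 11.3 in positive and 26, 17.7 and 11.5 in negative macrophages, lower in positive cells of all 6 libraries. The tag for CD3, a T cell protein, stayed at medians of 3 to 9 in every class, below that for F4/80 in each class and library.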

How the data were processed

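Gene and antibody tag UMIs were measured in 6 droplet libraries of sorted kidney leukocytes, 3 of rhabdomyolysis and 3 of control mice. The authors deposited raw UMI counts per feature and barcode with empty droplets included, made with Cell Ranger 4 per the file headers and with the mm10 build per the submitters' processing notes. The annotation is not given in the sources used here, and neither is whether antisense reads were counted. The cell filters and the chemokine threshold of the report were applied to these counts, and no doublet caller was run. Free RNA was not subtracted.

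UMIs were summed per library and class and fitted over all genes with the edgeR 4.0.16 quasi-likelihood test (R 4.3.3, limma 3.58.1), with TMM scaling, filterByExpr and Benjamini-Hochberg adjustment. The library was a term wherever classes of the same library were compared, since both classes come from 1 library. A class entered a fit with at least 10 cells in a library. The genes of the cell gates stayed in the fit and out of the counts of calls. Single values were tested with exact permutations (Python 3.11.15, scipy 1.17.1), and shares have exact Clopper-Pearson 95% intervals. A fold against no UMI was set against a floor of 3 counts over the group. CPM are UMIs per 1e+06 gene UMIs of the summed cells and carry no length correction, so they are not compared between genes. On simulated counts edgeR recovered 31% of 100 genes changed by log2 1 and 70% of 100 changed by log2 2 for positive against negative macrophages of rhabdomyolysis, over 9016 genes, and 30% and 70% for those of control, over 9790 genes. For the interaction, over 10147 genes, it recovered 17% and 44%.

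Alternatives were DESeq2 1.42.0, RLE size factors, every gene with 1 or more counts, no library term or the replicate number as a term, each library left out, other thresholds, a UMI window of 2000 to 10000 and leaving out cells with 2 or more UMIs of other cell types' markers. The 5000 UMI minimum, the fits on Cxcl10-alone cells and the UMI window in the fits between conditions were chosen after seeing the data. The members, the gene lists and the tests were chosen with earlier results of these data known, so the counts over lists are descriptions. Named genes are the markers, up to 10 genes in each direction with the largest change among called genes of an average log2 CPM of at least 5 and 1 direction in every library (between conditions, groups that do not overlap), and up to 4 called genes of each list, while any gene of the GTPase, receptor and regulatory factor lists may be named. Genes named outside this rule, after their values were seen, are Ifit1 throughout, Isg15 and Serpina3g in the interaction, Nlrc5, Cd274, Ccl2, Cxcl16 and Ccl9 in control, Ccl3 between kinds of cell, and Isg15, Plac8, S100a4, Mrc1 and Apoe between the conditions. Promoter sequences are from RefSeq, build GRCm38.p6. Some results for single genes are not reported here.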

Additional observations from a re-analysis of the deposited data

Results flagged for a closer look

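Of the 67 genes called in the edgeR interaction test, with Benjamini-Hochberg adjustment over all genes, 19 are among the named genes and are listed here. For these the difference between positive and negative macrophages differed between rhabdomyolysis and control. Values are log2 differences of the rhabdomyolysis fold change from the control fold change. Among interferon-inducible GTPases they were -3.26 for Gbp2 (adjusted p = 2.07e-09), -2.34 for Gbp7 (adjusted p = 1.25e-07), -2.23 for Gbp5 (adjusted p = 0.0223) and -1.10 for Ifi47 (adjusted p = 0.0259). Chemokines of the CC family stood at -3.12 for Ccl5 (adjusted p = 4.9e-16) and -2.32 for Ccl12 (adjusted p = 1.02e-17), with Ccl9 at 1.34 (adjusted p = 0.00158) and Ccl6 at 1.03 (adjusted p = 0.000833) in the other direction. The Ccl5 fold change in rhabdomyolysis took the other sign without cells holding other cell types' markers. The interaction was not run in that setting. The transcription factor Irf8 was at -0.81 (adjusted p = 0.0199). Cd274 was at -2.52 (adjusted p = 0.0239), Serpina3g at -4.11 (adjusted p = 0.0271), C3 at -4.04 (adjusted p = 0.000451) and Psme2 at -0.92 (adjusted p = 0.00506). The class II genes H2-Eb1, H2-Ab1, Cd74 and Ciita were at 0.69 (adjusted p = 0.000284), 0.58 (adjusted p = 0.00337), 0.50 (adjusted p = 0.00629) and 1.96 (adjusted p = 0.017), and all 4 took the other sign among cells of 2000 to 10000 UMIs. Lyz2 was at 0.78 (adjusted p = 3.23e-06) and Mmp12 at 1.14 (adjusted p = 0.0428). The libraries without which a call was lost are named with each gene in the comparison of the conditions. DESeq2 did not call Gbp5, Ifi47, Cd274, Irf8, Psme2, H2-Eb1, H2-Ab1, Cd74 or Mmp12. Among cells of 2000 to 10000 UMIs the calls of Gbp5, Cd274, Irf8, Psme2, C3, Mmp12, Ccl9 and Ccl6 were lost.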

How the results depend on the processing

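The difference in the share of positive macrophages, rhabdomyolysis minus control, was 1.5 percentage points of macrophages and 0.45 of passing barcodes. It turned round when cells were thinned to 1000 UMIs, at -0.642 (exact permutation p = 0.3) and -0.37 (exact p = 0.2), when thinned to 2000 UMIs, at -0.215 (exact p = 0.7) and -0.132 (exact p = 0.5), and without the Malat1 filter, at -2.24 and -1.43 (exact p = 0.1 each, the smallest that 3 against 3 allow). Leaving out 1 library gave 0.617 to 2.13 and 0.16 to 0.689. Neither share passed the test in any setting run.

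The number of genes called for positive against negative macrophages of control was 324, against 185 by DESeq2, 33 without cells with other cell types' markers, 100 at 5000 or more UMIs and 176 to 344 with 1 library left out, the lowest without control 1. In rhabdomyolysis it was 89, against 30 by DESeq2, 12 without cells with other types' markers, 2 in the 2000 to 10000 UMI window, 42 at 5000 or more UMIs and 57 to 130 with 1 library left out, being 59 without rhabdomyolysis 1 and 57 without rhabdomyolysis 3. The interaction gave 67, against 20 by DESeq2, 31 with Cxcl10-alone cells and 43 to 87 with 1 library left out, the lowest without control 1. Positive macrophages of rhabdomyolysis against control gave 772, against 510 by DESeq2, 339 with Cxcl10-alone cells, 303 in the UMI window and 363 to 1429 with 1 library left out, being 498 without rhabdomyolysis 1, 1429 without rhabdomyolysis 2, 410 without control 1 and 363 without control 3. All macrophages gave 4604, and 3001 to 6098 with 1 library left out, the lowest without control 2. Cxcl10-alone against Cxcl9-alone cells gave 41, against 1 by DESeq2, and leaving out a library was not possible since only 2 entered. The cause of these changes was not tested, beyond the fewer cells and libraries that the restricted fits hold.

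Without the library term, the classes of a library being unpaired, the counts were 254 in control, 0 in rhabdomyolysis (206 genes at an unadjusted p under 0.05 by edgeR) and 40 between the kinds of cell. Whether equal replicate numbers of the conditions mark paired libraries is not known. For replicate numbers 1, 2 and 3, deviations from the group means correlated at 0.175, 0.245 and 0.0923 over all macrophages. Pairs of unlike number stood lower there, at -0.25 to 0.0771. Over positive macrophages the same-number pairs stood at 0.112, 0.0687 and -0.097, within the -0.178 to 0.12 of unlike pairs. The main fits between the conditions were unpaired. A replicate block gave 740 and 4643 calls between the conditions and left the share differences at 1.5 and 0.45.

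Of 1336 values of named genes under an alternative, 1089 kept their direction and side of the threshold, 227 lost the call in the same direction, 7 gained one and 13 changed sign. Of these 2 were called in neither fit, Isg15 between the conditions in the UMI window (-0.652) and Ly6c2 in rhabdomyolysis without rhabdomyolysis 3 (-0.11), and 11 were called values. Called values changed sign in the UMI window for H2-Eb1 (-0.732), H2-Ab1 (-0.74) and Cd74 (-0.322) in rhabdomyolysis and for Ciita (-0.19), H2-Eb1 (-0.853), H2-Ab1 (-0.993) and Cd74 (-0.349) in the interaction. It changed without cells with other types' markers for Ccl5 (1.42) and H2-Ab1 (-0.0767) in rhabdomyolysis, and with Cxcl10-alone cells for Psme2 (0.532) in the interaction and Gbp2 (0.237) between the conditions. The split of higher and lower calls moved with scaling or tool: 154 higher and 31 lower by DESeq2 against 226 and 98 in control, 28 and 2 by DESeq2 against 69 and 20 in rhabdomyolysis.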
